A study of Mus musculus with 2 samples.

Results

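The 10 genes described here handle arginine and citrulline in and around nitric oxide synthesis: Ass1, Asl, Arg1, Arg2, Nos1, Nos2, Nos3, Ddah1, Ddah2 and Odc1. They were chosen by name, as genes of arginine recycling, arginine breakdown, nitric oxide synthesis and dimethylarginine breakdown, out of 20887 genes named on the array. All 10 were matched, through 15 probes in 34 spots. The list was drawn up with results of the same arrays known, so the differences below are descriptions of these measurements.

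Expression was measured in primary pericytes, contractile cells of the walls of small vessels, cultured from the cavernous tissue of the penis of C57BL/6 mice. The cells grew in serum-containing medium with human pigment epithelium-derived factor and then spent 72 h in normal glucose, labelled 5 mmol with no volume stated, or in high glucose, labelled 30 mmol. Each condition was 1 pool of RNA from 3 samples, hybridised to 1 Agilent 1-colour array. There is therefore no replicate check and no test. Every difference below is between these 2 pools, and an osmotic control was not used here. Animal age and sex were not given in the sources used here.

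Arginine is the substrate from which nitric oxide synthases make nitric oxide, leaving citrulline. Argininosuccinate synthase (Ass1) and argininosuccinate lyase (Asl) turn that citrulline back into arginine. Arginases compete for arginine and yield ornithine, which ornithine decarboxylase (Odc1) commits to polyamines. Asymmetric dimethylarginine, released from methylated proteins, inhibits the synthases and is degraded by the dimethylarginine dimethylaminohydrolases Ddah1 and Ddah2. In cavernous tissue, nitric oxide from nerves and endothelium relaxes smooth muscle and brings about erection.

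Ass1, which carries out the rate-limiting step of citrulline recycling, stood out among the 10 genes: both of its probes were lower in high glucose. Its partner Asl, the inducible and endothelial synthases Nos2 and Nos3, Ddah2 and Odc1 all differed by less than 1.2-fold. Ddah1 also did, although its 2 probes disagreed. Nos1 was well above background in normal glucose only, and neither arginase was well above background on either array.

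The arrays had 56.3% (normal glucose) and 57.6% (high glucose) of 59305 gene spots well above background, a call made by the scanner software, and no saturated spot. Signals are given as deposited, in linear intensity units. Ratios were taken after each array's log2 signals were centred on their 75th percentile, which raised high against normal glucose by 0.080 on the log2 scale. Of the 20887 genes, 14176 were measured: they were unsaturated and, on each array, well above background. Among them 0.917% differed by at least 2-fold, the size used as a call, and the median log2 ratio was -0.0073 (SD 0.24 over genes).

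Error can be judged within an array only. Probes printed 10 times gave a median SD of the log2 ratio between spots of 0.032 for mean signals above 4096, 0.044 from 512 to 4096, 0.10 from 128 to 512 and 0.25 below 128. The scanner software's own error estimate is wider and came to about 0.20 on the log2 scale for the ratio of a bright spot. Neither covers differences between cultures. Different probes bind with different strength, so signals are compared between the arrays and not between probes or genes.

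**Figure D1:**
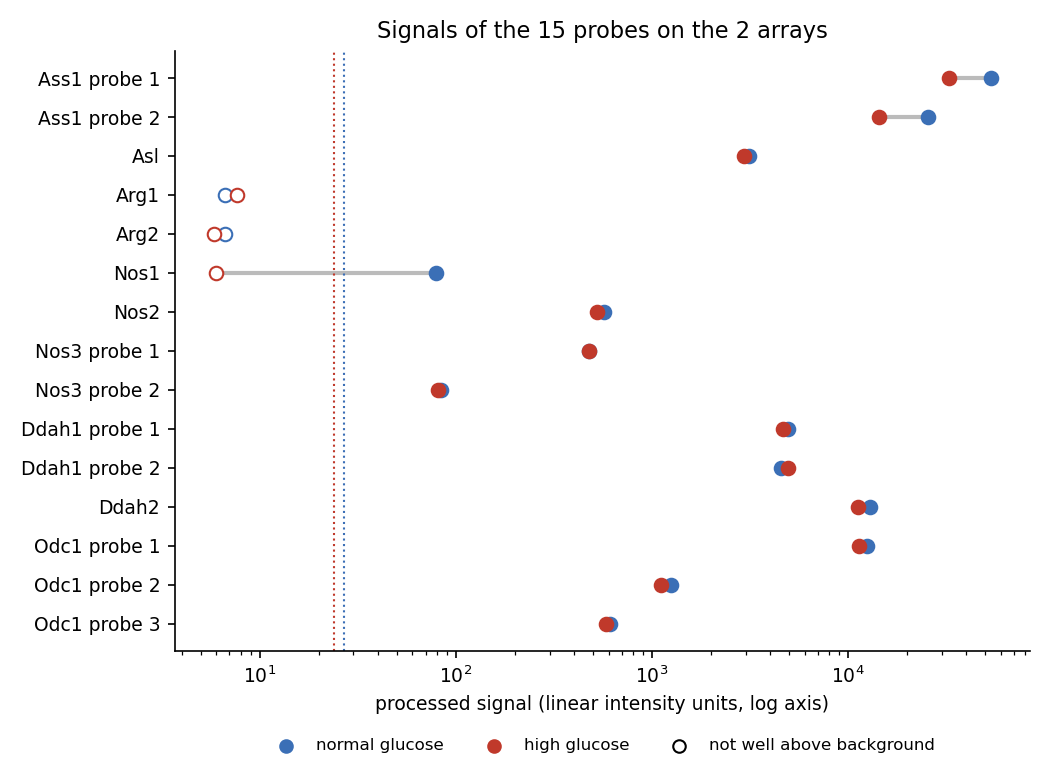
Processed signal (horizontal log axis, linear intensity units) of each of the 15 probes in normal glucose (blue) and high glucose (red), 1 array each, with repeat spots averaged. Open symbols were not well above background, dotted lines mark the lowest signal called well above background on each array (26.9 and 24.0), and a reader should see that the 2 Ass1 probes and the Nos1 probe have the widest gaps between the arrays.

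With its brighter probe Ass1 read 53347 units in normal glucose against 32645 in high glucose. That is 1.55-fold lower in high glucose, a log2 ratio of -0.63 (scanner error 0.20). The second probe read 25518 against 14411 units, 1.68-fold lower, a log2 ratio of -0.74 (scanner error 0.20). Both probes were thus brighter in normal glucose, and their log2 ratios differed from each other by 0.12. The ratios were 19.7 and 23.3 times the SD between repeat spots of that brightness, and 3.08 and 3.65 times the scanner error. Such multiples concern only how finely a spot is read, and each Ass1 probe had 1 spot. Across genes with mean signals above 4096 the log2 ratios had an SD of 0.14. The list was drawn up with this contrast known, so the multiples are no test.

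The 2 Ass1 spots lay 136 rows and 135 columns apart on an array of 384 rows and 164 columns, so they share no neighbourhood. Neighbours within 5 rows and columns were used if well above background on both arrays, whatever their brightness. Their median log2 ratio was -0.015 around the first Ass1 spot (55 spots) and 0.021 around the second (59 spots). The median pixels of the spots, less local background and set to the same centre as the processed ratios, gave -0.63 and -0.73. Neither spot was marked as an outlier. These pixels come from the same spots and scans as the processed signals, and the neighbours are other probes. A fault of a single spot or probe was not tested.

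Ass1 was the only one of the 7 measured members past 1.5-fold, and none was past 2-fold. Over all measured genes 2.81% were past 1.5-fold in either direction and 1.19% were at least 1.5-fold lower. The choice of members used this contrast, so nothing is read from that comparison. Ass1 ranked 142nd from the lowest ratio among all 14176 measured genes, most of the wider ratios coming from dim probes. Among the 4715 genes with a mean signal above 4096 it ranked 7th from the lowest. In that bright set 7 genes were at least 1.5-fold lower and 13 at least 1.5-fold higher.

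Genes with several probes can be described the same way, from the same contrast, so this too is a description from which nothing further is read. Of 3632 genes with at least 2 measured probes, Ass1 was the only gene with every probe at least 1.5-fold lower in high glucose (0.0275% of them), and 7 genes had every probe at least 1.5-fold higher. The lower count was 2 with quantile normalization or median pixels, 6 with a looser detection call and 16 with no filter on dim probes, Ass1 being 1 of them each time. One of those 7 was Prmt1, the main arginine methyltransferase and thus a source of the methylarginines that Ddah1 and Ddah2 degrade, with a log2 ratio of 1.00 in its less changed probe. It was named after its value was seen. The spread between probes of the same gene had a median of 0.11 over the 3632 genes and of 0.045 over the 518 of them with every measured probe above 4096. The 2 Ass1 probes, both above 4096, differed by 0.12, more than is typical at that brightness.

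**Figure D2:**
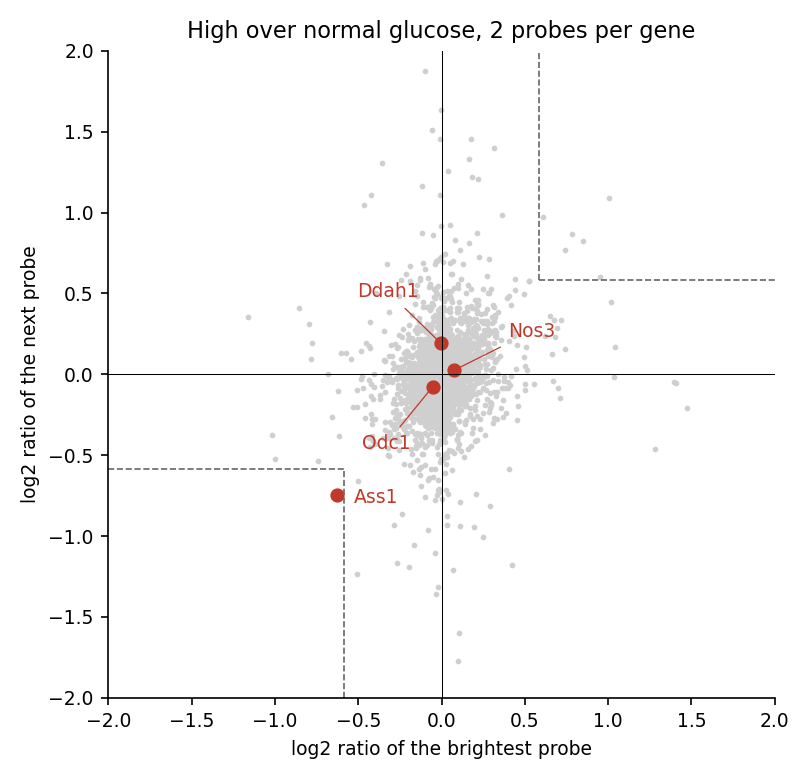
Log2 ratio of high over normal glucose for the brightest probe (horizontal) and the next brightest probe (vertical) of each of 3632 genes (grey points), with the 4 members that have at least 2 measured probes in red. Dashed corners mark 1.5-fold in both probes, 7 genes lie outside the axes, and Ass1 is the 1 gene in the lower left corner.

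The stretch of 250 bases before the annotated start of Ass1 is shown because this gene carries the main difference, and that of Nos1 because it was detected in normal glucose only. Both come from RefSeq in build GRCm38.p6, which held 5 of the 10 members (Ass1, Ddah1, Nos1, Odc1 and Ddah2). They lie at chr2:31470020-31470269 and chr5:117866589-117866838, both on the plus strand. Capitals mark letter matches on either strand to 5 motifs. These were the E-box, spelled CACGTG, and the TATA box, searched for as TATAAA. The others were the GC box that Sp1 binds, written GGGCGG, and the site of the AP-1 factors, read as TGANTCA. The last was the CCAAT box, by those letters.
Ass1: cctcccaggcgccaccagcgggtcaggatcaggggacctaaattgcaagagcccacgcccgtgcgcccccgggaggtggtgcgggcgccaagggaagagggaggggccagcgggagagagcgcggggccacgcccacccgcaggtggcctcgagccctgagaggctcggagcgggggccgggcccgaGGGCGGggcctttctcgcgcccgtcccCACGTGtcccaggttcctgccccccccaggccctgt
Nos1: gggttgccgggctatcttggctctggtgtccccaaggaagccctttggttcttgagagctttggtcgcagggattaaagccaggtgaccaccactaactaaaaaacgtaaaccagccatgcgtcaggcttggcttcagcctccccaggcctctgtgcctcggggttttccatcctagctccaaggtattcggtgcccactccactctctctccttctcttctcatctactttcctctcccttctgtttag

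The Ass1 stretch is rich in G and C (75.6%, against a median of 52.4% over 32851 such stretches). That of Odc1 is richer (80%), and those of Ddah1 (64%) and Ddah2 (58%) also lie above this median. The Ass1 stretch held 1 E-box match, whose first base lies at position -36 from the start, and 1 GC box match at -63. E-box letters occur in 6.02%, GC box letters in 32.7%, TATA box letters in 12.4%, AP-1 letters in 6.75% and CCAAT letters in 33.8% of all such stretches. The Nos1 stretch (54% G and C) held no match to any of the 5 motifs. It ends in a run rich in c and t before the letters ag, as the end of an intron does. It may therefore lie inside the gene and not be a promoter, so nothing is read from the lack of matches. Odc1 held 4 GC box matches, Ddah2 held 2 and Ddah1 none, and the E-box match of Ass1 was the only one among the 5 members. These are letter matches only, and nothing about binding was measured.

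Asl, the next enzyme of the recycling pathway, did not share the Ass1 difference. It read 3120 units in normal glucose against 2930 in high glucose, a log2 ratio of -0.011 (scanner error 0.20). The sign of so small a ratio has no weight: it became 0.0002 under 1 alternative way of processing. Relative to Asl, Ass1 had a log2 ratio of -0.62 in RNA signal. Asl rests on 1 spot of 1 probe, and the amounts of the enzymes were not measured.

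The nitric oxide synthases use arginine directly. Nos2, the inducible synthase of inflamed tissue and macrophages, had 2 spots of 1 probe, with 560 and 578 in normal and 517 and 532 in high glucose. The log2 ratio after scaling was -0.037 (SD 0.0021 between the 2 spots), within the SD of 0.044 for repeat spots of that brightness. The unscaled spots of the 2 arrays did not overlap, and the scaled difference was 1.03-fold.

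Nos3, the endothelial synthase, read 478 units in normal glucose against 476 in high glucose with its brighter probe, a log2 ratio of 0.074 against a repeat spot SD of 0.10. Its other probe was printed 10 times and was dim. In normal glucose the lowest, median and highest of these spots were 76.7, 83.1 and 93.9, and in high glucose 74.1, 81.2 and 89.0. The spots of the 2 arrays overlapped throughout, with a mean log2 ratio of 0.024 (SD 0.14, 10 spots) and 4 of 10 spots higher in high glucose. The sign of the Nos3 ratio turned negative under 2 alternatives, at -0.13 with median pixels and -0.033 with a modelled background.

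Nos1, the neuronal synthase, rested on 1 dim spot. It gave 78.8 in normal glucose, well above background, and 6.00 in high glucose, which was not. Set against the lowest signal well above background in high glucose, 24.0, Nos1 was at least 3.11-fold lower there. Its median pixel less local background was 74.5 in normal and 14.0 in high glucose. Spots within 5 rows and columns that were well above background on both arrays had a median log2 ratio of 0.0007 (69 spots). In all, 347 of the 20887 named genes were well above background in normal glucose only, and 144 of them (0.689% of the named genes) had a bound of at least 2-fold in that direction. The opposite was more frequent, with 512 genes well above background in high glucose only, 157 of them with a bound of at least 2-fold. Dim spots of single probes like this one are where the 2 arrays differ most: 104 of the 169 genes at least 1.5-fold lower had a mean signal below 128.

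The arginases remove arginine. Arg1, the cytosolic liver-type arginase, had 6.63 in normal and 7.62 in high glucose, and neither spot was well above background. Arg2, the mitochondrial arginase, had 6.64 and 5.81, likewise not well above background. In high glucose the Arg1 spot passed only the software's looser call of positive and significant signal. No ratio is given for either gene, since both arrays are at background level.

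Ddah1 was measured by 2 probes that gave different answers. The probe printed 10 times had 4462 as its lowest, 4524 as its median and 4669 as its highest signal in normal glucose, and 4777, 4913 and 5111 in high glucose. All 10 spots were higher in high glucose and the 2 arrays did not overlap, with a log2 ratio of 0.19 (SD 0.024, 10 spots), or 1.14-fold. The other probe, printed once, gave 4918 in normal and 4635 in high glucose, a log2 ratio of -0.0056. The repeat spots show how finely a spot can be read on these arrays, and the gap between the probes shows that 1 probe of a gene can depart from another by several times that error. By the rule of taking the brightest probe, Ddah1 counts as -0.0056, and over both probes as 0.094.

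Ddah2 had 1 probe, which read 12894 units in normal glucose against 11217 in high glucose. Its log2 ratio was -0.12, larger than the repeat spot SD of 0.032 and smaller than the scanner error of 0.20. It was the second lowest ratio among the 7 measured members, at 1.09-fold, and 338 of the 4715 bright genes had a ratio as low or lower.

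Odc1, the first enzyme of polyamine synthesis, was measured by 3 probes. The brightest gave 12503 in normal and 11393 in high glucose, a log2 ratio of -0.054. The second gave 1242 and 1113, a log2 ratio of -0.078, and the third 612 and 582, a log2 ratio of 0.0068. All 3 lay within 1.06-fold of no difference.

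**Figure D3:**
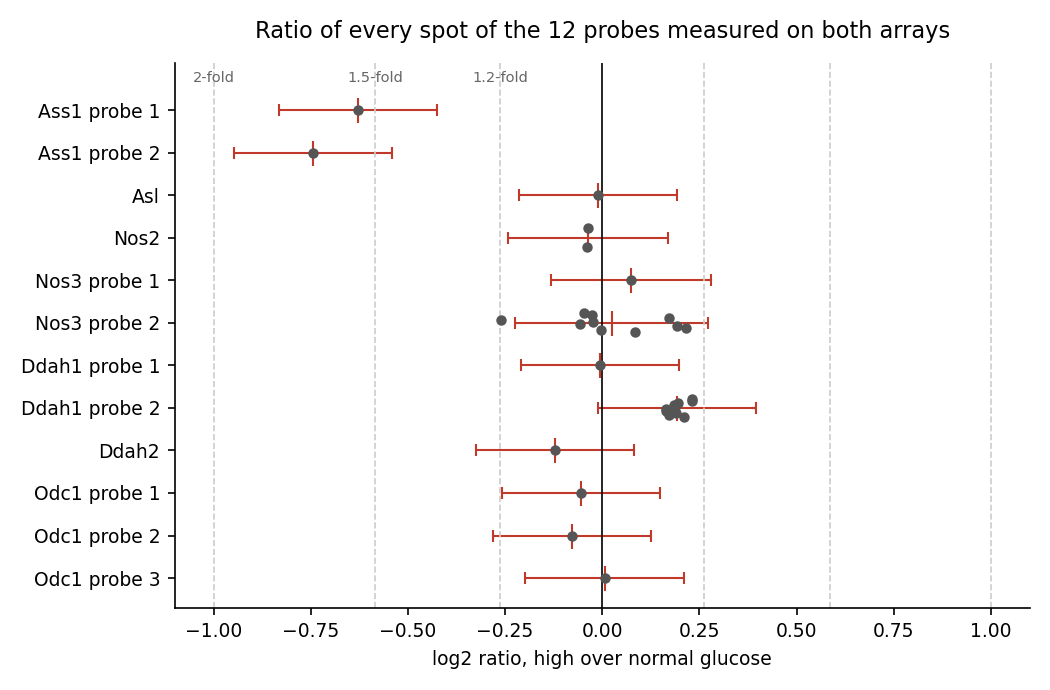
Log2 ratio of high over normal glucose (horizontal axis) of every spot of the 12 probes measured on both arrays (grey points), with the probe mean and the scanner software's error estimate as red bars. The 2 Ass1 spots lie beyond the 1.5-fold line, the 10 spots of Ddah1 probe 2 form a tight group at 0.19, and the 10 dim spots of Nos3 probe 2 scatter around 0.

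Without Ass1, the 6 other measured members had log2 ratios from -0.12 to 0.074, with a median of -0.024. With Ass1 the median of the 7 was -0.037, against -0.0073 for all measured genes. By sign 6 of the 7 were lower, where 46.8% of all measured genes were higher, but the sign of Asl, Ddah1 and Nos3 depended on the processing. At 1.2-fold, 1 of the 7 members passed (Ass1), where 12.3% of all measured genes did.

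**Figure D4:**
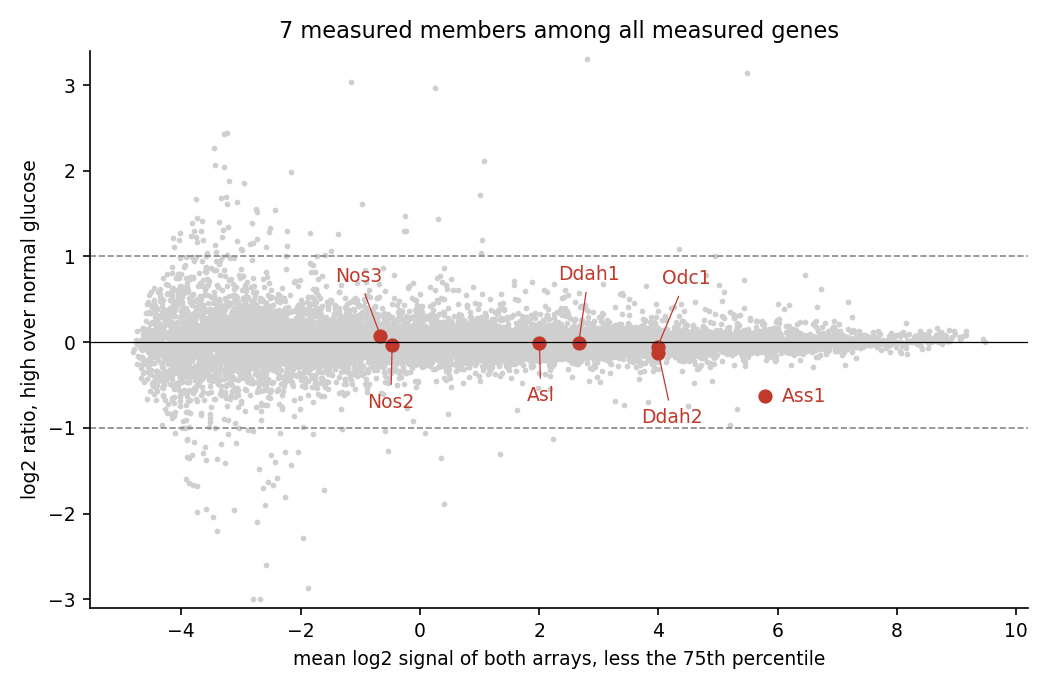
Log2 ratio of high over normal glucose against mean log2 signal of both arrays, centred on the 75th percentile, for 14176 measured genes (grey) and the 7 measured members (red), each by its brightest probe. Dashed lines mark 2-fold, 3 grey points are drawn at the axis limits, and Ass1 lies below the narrow band of genes of its brightness while the other 6 lie inside it.

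The steps around these enzymes were read from lists of other pathway genes. Of 14 genes of arginine and citrulline supply 10 were measured, 4 higher and 6 lower, with a median log2 ratio of -0.047 and 1 past 1.2-fold. That was Slc7a3, a cationic amino acid transporter, with 461 in normal and 340 in high glucose (log2 ratio -0.36). Slc7a2, another transporter of this family, had -0.21, from signals of 73.2 and 59.8, both dim, and also passed 1.2-fold with median centring (-0.27) and median pixels (-0.49). Slc7a1, the widely expressed arginine transporter, had 11022 and 10796, a log2 ratio of 0.050, and -0.011 and -0.080 with median centring and median pixels. It was named after its value was seen. Cps1, Otc and Nags, the mitochondrial urea cycle genes that make citrulline in liver, were not well above background on either array. Nor was Slc25a2, an ornithine carrier. Slc25a15, another ornithine carrier, was measured, with 231 and 229 (log2 ratio 0.065), and was also named after its value was seen.

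Downstream of ornithine the values were near even. Of 14 polyamine genes 12 were measured, 8 higher and 4 lower, with a median of 0.023 that turned negative with median centring (-0.038). Oaz2, an antizyme that targets ornithine decarboxylase for degradation, was the only one past 1.2-fold. It had 45864 in normal and 52415 in high glucose (log2 ratio 0.27), and its second probe gave 0.61. The brighter probe fell short of 1.2-fold with median centring (0.21), median pixels (0.10), a modelled background (0.20) and a position trend removed (0.24). Mtap, which salvages methylthioadenosine, had -0.13, and -0.26 with median pixels, just past 1.2-fold. Of 10 genes linking ornithine to proline and glutamate 9 were measured, none past 1.2-fold. Aldh4a1, of proline breakdown, had 0.080 and Oat, ornithine aminotransferase, -0.079.

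Genes that serve the synthases themselves had medians close to 0. The 7 tetrahydrobiopterin genes read here were measured, 3 higher and 4 lower, with a median log2 ratio of -0.0035 and none past 1.2-fold. Gch1, the rate-limiting enzyme of the cofactor's synthesis, had -0.11, from signals of 2901 and 2535. Pcbd1, which takes part in regenerating the cofactor, had -0.036, from 1843 and 1701. All 15 partners and regulators were measured, 8 higher and 7 lower, with a median of 0.0025 and 3 of 15 past 1.2-fold, where 12.3% of all measured genes were. Nostrin, which moves Nos3 away from the membrane, had -0.67 from dim signals of 50.7 and 30.1, and -0.25 with a modelled background. Cav3, a muscle caveolin, had 0.49, from 230 to 306. Nos1ap, an adaptor of Nos1, had 0.35 from dim signals of 70.1 and 84.7, and was named after its value was seen. Of 3 genes listed for other handling of methylated arginine only Dpp3, a dipeptidyl peptidase, was measured, at -0.13. The median of that list is this 1 gene, and nothing about methylarginine disposal is read from it.

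**Figure D5:**
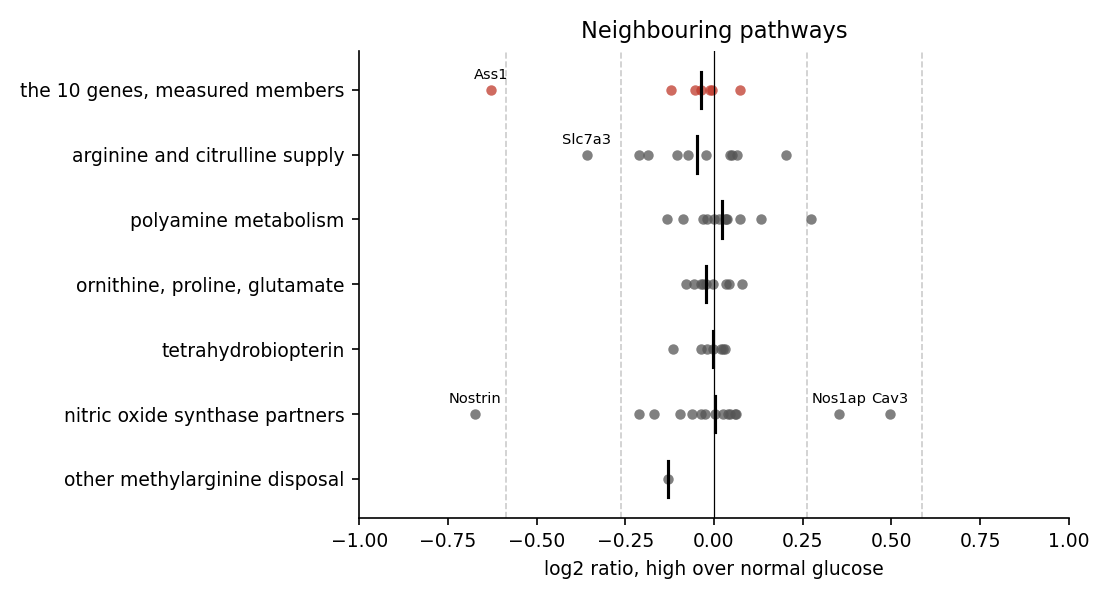
Log2 ratio of high over normal glucose of the measured genes in the group of 10 (red) and in 6 lists of neighbouring pathways (grey), 1 point per gene and a black bar at the median of each list. Dashed lines mark 1.2-fold and 1.5-fold, and beyond 1.5-fold lie Ass1 and Nostrin only, the latter from a dim probe.

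Markers of the cell types in which these enzymes are best known were read on the same arrays. Summed signals are unscaled and set by the brightest genes, so counts and median log2 ratios after scaling are given beside them. The markers given with values were picked after these were seen. Of 10 pericyte markers 9 were measured, 4 higher and 5 lower in high glucose (median -0.097), with sums of 118556 in normal and 108809 in high glucose. Pdgfrb, the receptor that marks pericytes, had 17471 and 18161, a log2 ratio of 0.14. Rgs5 (0.58, dim), Notch3 (0.15) and Mcam (0.0047) were also higher. Lower were Abcc9 (-0.45, dim), Des (-0.26), Cspg4 (-0.20), Anpep (-0.14) and Cd248 (-0.097). Kcnj8 was not well above background. Of 8 smooth muscle markers all 8 were measured, 7 higher and 1 lower (median 0.093), although the unscaled sum was 652043 in normal and 630379 in high glucose. Myocd, a coactivator of smooth muscle genes, was the only one past 1.5-fold, at 0.81 from dim signals of 33.0 and 54.7.

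Of 10 endothelial markers 5 were measured, 2 higher and 3 lower (median -0.033), with sums of 9100 and 8480. Kdr, a receptor for vascular endothelial growth factor, had 7379 and 7075, a log2 ratio of 0.019 after scaling. Its second probe gave -0.27. The related receptor Flt1 had 1432 and 1146, a log2 ratio of -0.24. Pecam1, Vwf and Esam were measured at lower signals, and Cdh5, Tek, Tie1, Emcn and Erg were not well above background on either array. The list thus went both ways on arrays where Nos3 was measured. Of 10 macrophage markers 9 were measured, 7 higher and 2 lower (median 0.12), with sums of 32386 and 33638. Itgam, the brightest of them, had 21959 and 22557, a log2 ratio of 0.12, while its dimmer probes gave -0.49 and -0.22. Cd74, the invariant chain of antigen presentation, went against most of this list. It was 3.02-fold lower, a log2 ratio of -1.60 from dim signals of 89.2 and 27.9. Of 8 neuronal markers 6 were measured, 3 higher and 3 lower (median 0.015), with sums of 18667 and 18063. None of 6 hepatocyte markers was measured on both arrays. Among them Cyp2e1 was well above background on 1 array, with 32.1 in normal and 21.3 in high glucose. The part of cell composition in the Ass1 and Nos1 values was not tested, and in pooled RNA fewer cells of a type and less RNA per cell cannot be told apart.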

How the data were processed

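Total RNA of mouse cavernous pericytes was measured on 2 Agilent 1-colour arrays, 1 pool of 3 samples per condition, grouped by the labels. Agilent's Feature Extraction 11.5.1.1 produced the deposited intensity values per the file headers, by subtracting background and removing trends within the array, with no scaling between arrays; the submitters' processing notes name version 9.3.2.1. Spot flags of 0 or 1 are deposited beside them. A value table deposited by the authors held the same linear intensity for 55249 of 55249 probes printed once (relative tolerance 0.0001).

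Log2 signals of repeat spots were averaged and centred on each array's 75th percentile over 55681 probes, after 3671 control spots were left out. Probes were named through RefSeq accessions in the table of GRCm38.p6 (27509 named, 28172 not). The array design uses mm9, so coordinates are given only for the stretches shown, in GRCm38.p6. A gene was its probe with the highest mean level, measured where at least 0.5 of its spots were well above background on both arrays. A bound sets the bright signal against the higher of the dim signal and the lowest signal well above background.

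No test was run with 1 array per condition. Counting was tested on simulated data with shifts far wider than the simulated noise. That checks the counting step only and says nothing about the counts in these data. The members and lists were chosen with earlier results of these data known. Named were all members, and in each list the genes past 2-fold or else the 2 with the largest ratios; 1 listed gene is not reported here and was left out of its list's counts and median. Alternatives were run with limma 3.58.1, R 4.3.3 and Python 3.11.15.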

Additional observations from a re-analysis of the deposited data

How the results depend on the processing

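Ass1 stayed lower in high glucose under all 13 alternatives, with log2 ratios from -0.74 to -0.62. Settings that reread the same signals or only changed which genes were counted could not move this ratio. These were the deposited value table, no dim filter, positive and significant signal, and genes brighter than the median gene. The Ass1 value moved by more than the repeat spot SD with median centring (-0.69), with median pixels (-0.74) and with the median over probes (-0.69). Its probe farthest from no difference (-0.74) had -0.81 with median centring and -0.84 with median pixels. The number of genes with every probe at least 1.5-fold lower was 2 with quantile normalization and with median pixels, 16 with no dim filter and 6 with positive and significant signal. Of the other measured members, Nos2, Ddah2 and Odc1 kept their sign in every alternative that measured them, while Asl changed sign in 1, Nos3 in 2 and Ddah1 in 5. The number of members higher was 2 with the percentile over detected probes, with no dim filter and with the median over probes, 3 with cyclic loess and 0 among genes brighter than the median gene. With no dim filter 3, 2 and 1 members passed 1.2-fold, 1.5-fold and 2-fold, because Nos1 and Arg1 then enter, although Nos1 was not well above background in high glucose, nor Arg1 on either array.

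Median centring and median pixels moved the median of all measured genes to -0.068 and -0.11, and the member median with it to -0.098 and -0.14. The list medians followed: -0.11 and -0.16 for supply, -0.038 and -0.086 for polyamines, -0.084 and -0.12 for ornithine and proline, -0.064 and -0.089 for tetrahydrobiopterin, -0.058 and -0.12 for synthase partners (-0.032 among brighter genes), and -0.19 and -0.22 for the list with Dpp3 (-0.23 with no dim filter, -0.18 with positive and significant signal).

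The share of genes past 1.2-fold was 20.9% with no dim filter, 19.4% with positive and significant signal, 3.13% among brighter genes and 7.26% with the modelled background. Past 1.5-fold these were 10.8%, 7.91%, 0.409% and 1.03%, and past 2-fold 6.09%, 3.49%, 0.0847% and 0.261%. The modelled background (normexp on median pixels, offset 50) and the removal of a position trend over blocks of 16 rows and columns were chosen after seeing the data; normexp on the mean spot signal was not run. No paired analysis was possible because each condition is 1 array, and for the same reason no array could be left out. Signal over background limits what can be read of Nos1, Arg1, Arg2 and the second Nos3 probe.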
